A study of Rattus norvegicus with 8 samples.

Results

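Ret is the receptor tyrosine kinase of the GDNF family. It stood out among the ratios of cells taken from rat brain at postnatal day 7 by flow sorting on A2B5 and OTMP, and its co-receptors and ligands are described here beside it. The family was taken as 9 genes: Ret, the co-receptor genes Gfra1, Gfra2, Gfra3 and Gfra4, and the ligand genes Gdnf, Nrtn, Artn and Pspn. Its probe sets are those annotated to exactly 1 of these genes, which gave 12 of 31142 tested probe sets, for 8 of 13810 named genes. Of the 12, 11 were on the array type called chip A and 1 was on chip B. Artn, the artemin gene, had no such probe set and has no value here. Ret was chosen for its high ratio, so its own values are a description without a test, while the other members were chosen by gene family.

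The labels call the sorted cells oligodendrocytes, and the series title calls them perineuronal, which names oligodendrocytes that lie against neuronal cell bodies. All 8 samples are of this 1 population, as 4 biological replicates each read on chip A and on chip B, with no control samples, and strain, sex and the number of animals per replicate are not given in the sources used here. P-values therefore measure the spread between these 4 replicates only. Each deposited value is a linear ratio between the signal of a probe set and that of a reference whose identity the labels leave unstated. A ratio of 1 thus means a signal equal to that reference. A ratio shows neither how bright a gene was nor whether it was expressed. Some chip B probe sets had a replicate at exactly 1, such as Dok1 (0.685, 1, 0.96 and 0.743) and Shc1 (0.802, 1, 1.184 and 0.892). Whether the reference was computed partly from these same arrays was not tested. A ratio of 1 therefore need not stand for a separate sample.

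GDNF-family ligands do not bind Ret directly. Each first binds a co-receptor of the GFRα family, which is held on the membrane by a lipid anchor, and the pair then brings Ret molecules together so that they phosphorylate each other. GDNF pairs mainly with GFRα1, neurturin with GFRα2, artemin with GFRα3 and persephin with GFRα4. Ret signalling is best known from enteric, sympathetic, sensory and motor neurons, from midbrain dopaminergic neurons and from the developing kidney. In bulk samples such as these, fewer cells of a type and less RNA per cell cannot be told apart.

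A single Ret probe set carried the high ratio. Probe set 1370989_at had ratios of 8.418, 4.341, 8.595 and 5.505 in replicates 1 to 4 on chip A. All 4 replicates lay far above 1, replicates 1 and 3 the highest and replicate 2 the lowest. The mean log2 ratio was 2.69 ± 0.48 (SD, n = 4), a geometric mean ratio of 6.45, which ranked 25 from the top among the 15866 tested probe sets of chip A.

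The other 2 Ret probe sets did not share this height. Probe set 1371112_at had ratios of 0.873, 0.812, 1.773 and 1.33, with replicates 3 and 4 above 1 and replicates 1 and 2 below it, and a mean log2 ratio of 0.19 ± 0.53 (SD, n = 4). Probe set 1388208_a_at had 0.876, 0.968, 1.133 and 0.888, with only replicate 3 above 1, and a mean log2 ratio of -0.06 ± 0.17 (SD, n = 4). Neither overlapped the first probe set in any replicate. Both are tied in the platform's annotation to 1 shared sequence record, and the high probe set is tied to a different one. The position of the probes along the transcript was not analysed here, and whether the probe sets read the same Ret RNA was not tested.

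Ret was not alone in such a split within a gene. Of 32 genes with at least 2 single-gene probe sets of which 1 had a mean log2 ratio of 2 or more, 20 (62.5%) had another probe set under 0.5, Ret among them. This count was chosen after the values were seen. Most probe sets of any gene lie low: on chip A a mean log2 ratio of 0.45 already stood at percentile 90.7. The count therefore does not show that probe sets of high genes disagree more often than others.

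**Figure D1:**
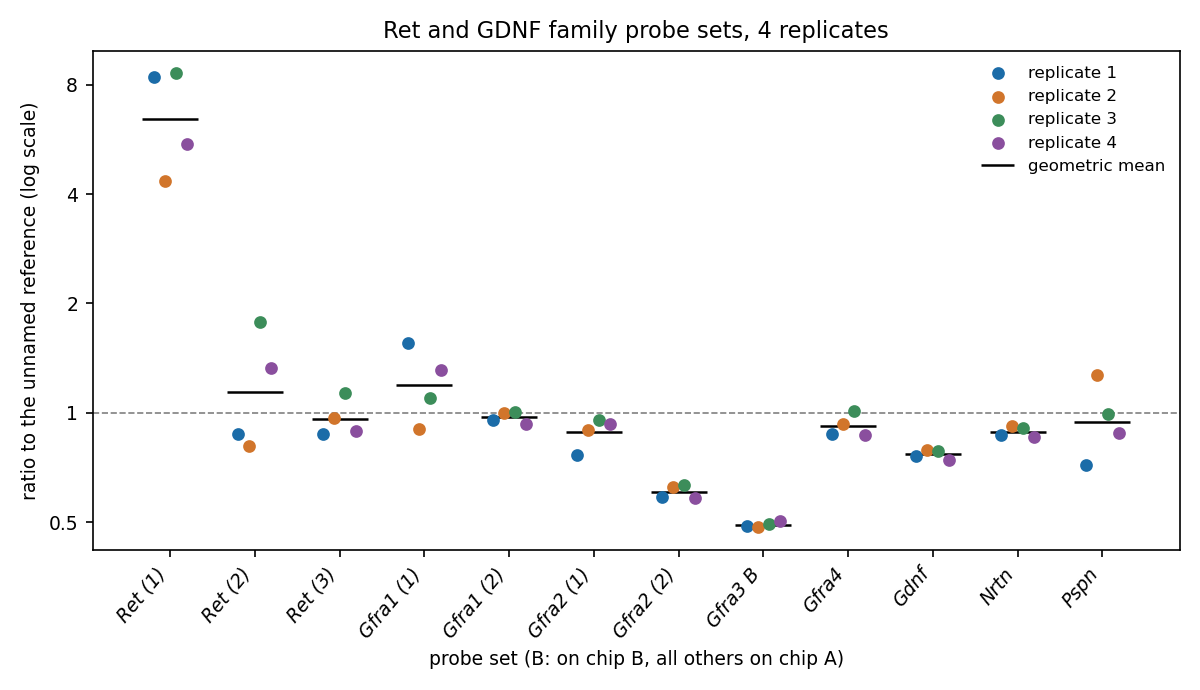
Ratio to the unnamed reference (vertical axis, log scale) of the 12 single-gene probe sets of Ret and the GDNF family, with 1 point per replicate and a bar at the geometric mean of 4 replicates; numbers in brackets tell probe sets of 1 gene apart. The first Ret probe set lies between 4.341 and 8.595, and every other value of the family lies between 0.484 and 1.773.

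Whether a co-receptor or ligand accompanied Ret was asked of the 7 other measured genes, with limma against a ratio of 1 over all probe sets of an array type. None of their 9 probe sets was above 1 at a limma adjusted p under 0.05, and 0 were above 1 at an unadjusted p under 0.05. By the same test 9.21% of all probe sets were above 1 on chip A, and 5.08% of those on chip B. Below 1 were 3 genes, Gfra2, Gfra3 and Gdnf, with 1 probe set each, so 33.3% of the 9 probe sets were below 1, near the 30.1% of all probe sets on chip A and the 27.1% on chip B. The median of the mean log2 ratios was -0.17 over these 9 probe sets and -0.11 over all tested probe sets on either array type. Of the 36 single ratios, 30 lay under 1 and 6 over 1.

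Gfra1 encodes the co-receptor that pairs with GDNF and was the only other member with a probe set whose mean lay above the reference. That probe set, 1387007_at, had ratios of 1.554, 0.9, 1.095 and 1.312, of which replicates 1, 3 and 4 were above 1 and replicate 2 below. The mean log2 ratio of 0.25 ± 0.34 (SD, n = 4) did not pass (limma adjusted p = 0.22), and its 95% interval ran from a ratio of 0.931 to 1.52. The second Gfra1 probe set, 1367954_at, was almost level with the reference at 0.953, 0.996, 1.004 and 0.932, a mean log2 ratio of -0.04 ± 0.05 (limma adjusted p = 0.632). Its interval ran from 0.87 to 1.08. The highest ratio of the first Gfra1 probe set was in replicate 1, and that of the high Ret probe set was in replicate 3. Replicate 2 was the lowest in both. It was also the lowest in high probe sets of other genes, such as Slc4a4 and Lrig1, though not in that of Gfap. With 4 arrays no correlation between the Gfra1 and Ret probe sets was computed.

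Gfra2 encodes the neurturin co-receptor. Probe set 1375359_at was low and even, at 0.586, 0.623, 0.632 and 0.581, and lay below 1 in all 4 replicates with a mean log2 ratio of -0.72 ± 0.06 (limma adjusted p = 0.000615). The other, 1369167_at, was closer to the reference at 0.764, 0.894, 0.955 and 0.933, a mean of -0.18 ± 0.14 that did not pass (limma adjusted p = 0.141). All 8 Gfra2 values were under 1.

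Gfra3, the artemin co-receptor gene, had the lowest ratios of the family. Its only probe set, 1377680_at on chip B, had 0.487, 0.484, 0.495 and 0.503, a geometric mean of 0.492, and a mean log2 ratio of -1.02 ± 0.02 (limma adjusted p = 9.87e-05). Gfra4, the persephin co-receptor gene, was near the reference in probe set 1369730_a_at, at 0.875, 0.931, 1.009 and 0.867 with a mean log2 ratio of -0.12 ± 0.10 (limma adjusted p = 0.233). Its interval ran from a ratio of 0.812 to 1.04.

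Among the ligands, Gdnf (probe set 1369598_at) had ratios of 0.762, 0.792, 0.785 and 0.742 and lay below 1 in every replicate, with a mean log2 ratio of -0.38 ± 0.04 (limma adjusted p = 0.00625). GDNF is the founding ligand of the family and a survival factor for dopaminergic and motor neurons. Nrtn, the neurturin gene (1374048_at), was also under 1 in all 4 replicates, at 0.866, 0.918, 0.909 and 0.855, but its mean of -0.17 ± 0.05 did not pass (limma adjusted p = 0.0806). Before adjustment its limma p was 0.0361, and its interval ran from a ratio of 0.795 to 0.989. Pspn, the persephin gene (1387533_at), varied most among the ligands, at 0.716, 1.273, 0.993 and 0.882. Its replicate 2 was above 1 and replicates 1, 3 and 4 were below, for a mean of -0.08 ± 0.35 (limma adjusted p = 0.693) and an interval from a ratio of 0.736 to 1.21. These intervals are not adjusted for the number of probe sets.

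**Figure D2:**
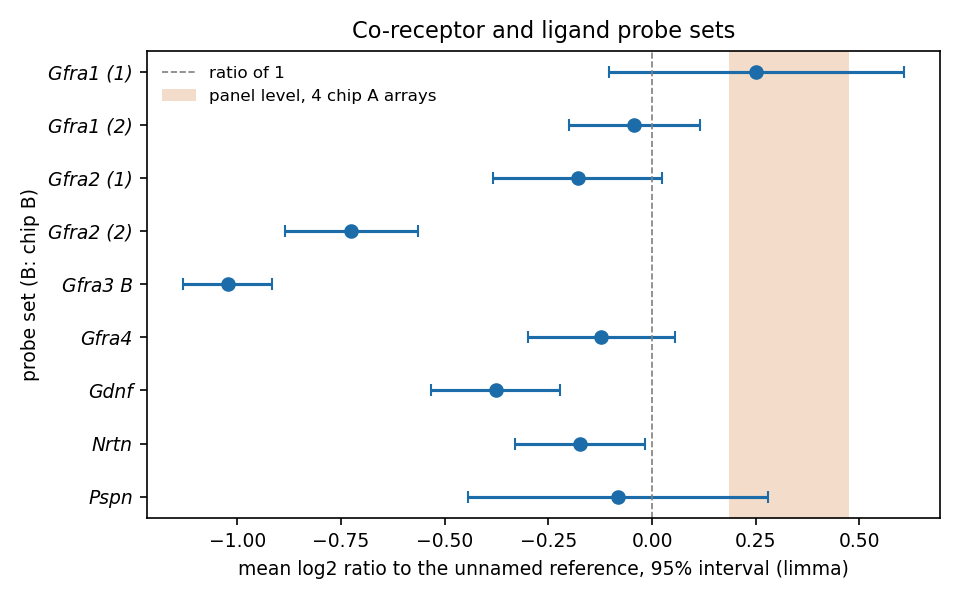
Mean log2 ratio to the unnamed reference (horizontal axis) of the 9 co-receptor and ligand probe sets, with limma's unadjusted 95% interval over 4 replicates; the dashed line is a ratio of 1 and the band spans the panel level of the 4 chip A arrays. Only the first Gfra1 probe set has a mean above 0, at 0.25, and its interval crosses 0.

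Low, even ratios were also found in genes of other organs, and low ratios in control probe sets. A panel of genes from other organs, such as digestive enzymes, milk proteins and sperm proteins, had 147 single-gene probe sets on chip A, of which 55.1% were below 1 by the same test, with a median log2 ratio of -0.38 and a median SD of 0.08. Of 45 control probe sets for bacterial and spiked genes, 7 on chip A had all 4 ratios under 0.75, running from 0.381 to 0.696, and 10 on chip B did, running from 0.385 to 0.748. The ratios of Gfra3 and of the lower Gfra2 probe set fell inside these ranges, and whether any of the 3 low members was detected cannot be read from ratios.

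The panel also gave a stricter bound for a high ratio. Its 95th percentile, the panel level, stood at a ratio of 1.14, 1.35, 1.39 and 1.15 on the chip A arrays and 1.04, 1.30, 1.36 and 1.09 on the chip B arrays. Chip B held only 9 panel probe sets, so its level was carried over from the same-numbered chip A array. By a one-sided limma test 2.16% of all probe sets of chip A, 3% of those of chip B and 2.72% of named genes lay above this level, and none of the 9 co-receptor and ligand probe sets, again with 0 at an unadjusted p under 0.05. The mean of the high Ret probe set exceeded the panel level by 2.37 on the log2 scale, given without a test.

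The profile of the high Ret probe set was compared with all other single-gene probe sets of chip A by the root mean square difference of log2 ratios over the 4 replicates. The nearest was Slc4a4, a sodium bicarbonate cotransporter gene of astrocytes, with a difference of 0.15 and ratios of 9.422, 3.877, 7.821 and 5.054. Next came Abcd2, a peroxisomal fatty acid transporter gene (0.23), Kcnd3, a subunit gene of A-type potassium channels (0.27), Ntm, an adhesion molecule gene of the IgLON family (0.28), and Nrcam, a neuronal cell adhesion gene of the L1 family (0.29). The 5 were picked for this closeness, so their likeness to Ret is a description. The measure takes in the mean height as well as the order of the replicates, and it rests on 4 arrays that these genes share. Of these genes Kcnd3 had another of its 3 probe sets near the reference, with a mean log2 ratio of -0.12, while the lowest Nrcam, Slc4a4 and Ntm probe sets stood at 1.46, 1.79 and 2.07.

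**Figure D3:**
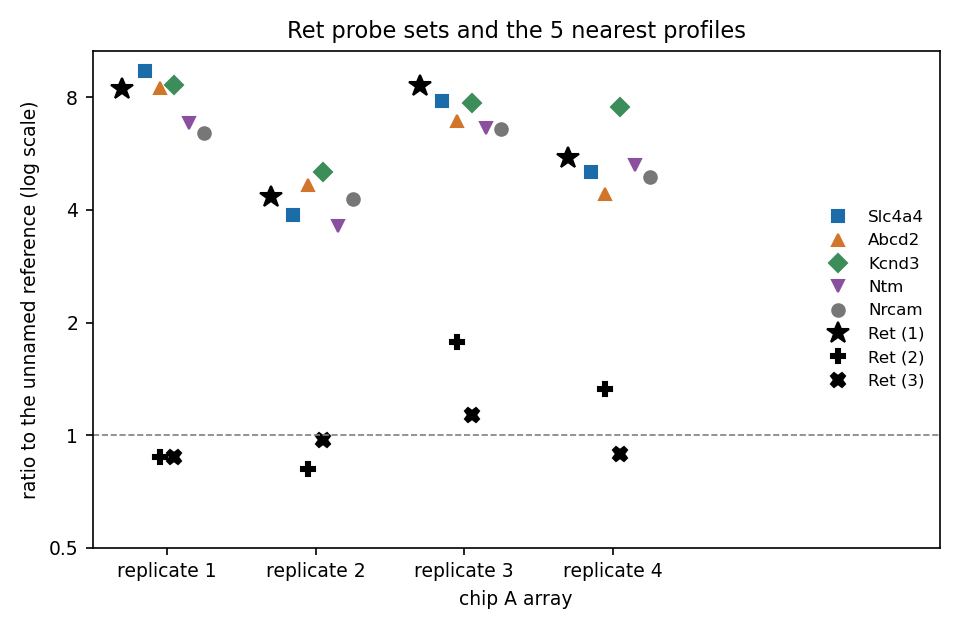
Ratio to the unnamed reference (vertical axis, log scale) on the 4 chip A arrays (horizontal axis) for the 3 Ret probe sets, in black, and the 5 probe sets of other genes nearest to the first of them, shifted sideways so that points do not hide each other. The first Ret probe set lies with the 5 other genes, and the other 2 Ret probe sets lie between 0.812 and 1.773.

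Genes around the pathway were read from lists. GFRα co-receptors can also signal without Ret, through NCAM, and the heparan sulfate proteoglycan syndecan-3 is another GDNF receptor. Of 7 measured genes for such partners and for the related GDF15 branch, 3 had a probe set above 1 and 3 had one below, against 9.23% and 37.7% of all named genes. L1cam, an adhesion molecule gene, was highest at a mean log2 ratio of 1.42 ± 0.38 (SD, n = 4; limma adjusted p = 0.00135) and was the only one of them above the panel level (limma adjusted p = 0.0376). Ncam1 had a probe set above 1, with ratios of 2.083, 1.609, 1.735 and 2.35 and a mean of 0.94 ± 0.25 (limma adjusted p = 0.00182), and another at 0.45 ± 0.39 that did not pass (limma adjusted p = 0.0744). All 8 Ncam1 ratios were above 1. The probe sets of Sdc3 went both ways. Gas1, which encodes a membrane protein related to the GFRα family, was low at -1.82 ± 0.33 (limma adjusted p = 0.000364), with ratios of 0.245, 0.396, 0.276 and 0.243, and Met, the hepatocyte growth factor receptor gene, was at -0.89 ± 0.08 (limma adjusted p = 0.000337). The medians of the list and of all single-gene probe sets were -0.31 and -0.13.

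Without centring of the arrays, genes listed as downstream of active Ret, not all of which pass on its signal, were called about as often as other genes. Of 33 measured adaptor, kinase and other downstream genes, 3 had a probe set above 1 (9.09%) and 10 had one below (30.3%), beside 9.23% and 37.7% of all named genes. With each array centred on its median the 3 became 7. The 3 were Rap1gap, an inhibitor of the GTPase Rap1, at 1.01 ± 0.53 (limma adjusted p = 0.014), the Hippo pathway transcription factor gene Tead1 at 0.88 ± 0.43 (limma adjusted p = 0.0118) and the kinase gene Src at 0.54 ± 0.17 (limma adjusted p = 0.00584). Another Src probe set was below 1, at -1.20 ± 0.05 (limma adjusted p = 0.000131). None of the 33 was above the panel level by limma, and 2 were at an unadjusted p under 0.05. The lowest was the adaptor gene Shc2, whose chip B probe set stood at -1.51 ± 0.02 (limma adjusted p = 5.93e-05) while its chip A probe set was level with the reference, and the adaptor gene Grb7 stood at -1.18 ± 0.06 (limma adjusted p = 0.000138). The list's median was -0.06, against -0.13 over all single-gene probe sets.

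Genes known to be induced by Ret, or to restrain it, divided. Of 21 measured, 6 had only probe sets above 1 among their calls (28.6%, beside 9.23% of all named genes) and 9 had only ones below (42.9%, beside 37.7%). With each array centred on its median the 9 became 5. The list had a median of 0.00 against -0.13 over all single-gene probe sets. Etv4, which encodes an ETS transcription factor induced by GDNF in kidney and motor neurons and by fibroblast growth factors in many tissues, had ratios of 12.35, 11.47, 15.06 and 13.13 in 1 chip B probe set, a mean log2 ratio of 3.69 ± 0.17 (limma adjusted p = 5.93e-05). Its second probe set was also above 1 in all 4 replicates, at 1.41 ± 0.38 (limma adjusted p = 0.00263). Etv5, the closely related ETS gene, did not follow, with probe sets at -0.05 ± 0.33 and 0.02 ± 0.40 (limma adjusted p = 0.808 and 0.936).

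A pair of genes whose products act on the Ret protein were among those above the panel level. Lrig1 encodes a membrane protein that restrains Ret and other receptor kinases, and its ratios of 5.195, 3.953, 5.37 and 5.093 gave a mean log2 ratio of 2.28 ± 0.20 (limma adjusted p = 0.000102). Ptprf encodes the receptor phosphatase LAR, and its higher probe set stood at 1.86 ± 0.29 (limma adjusted p = 0.000238). A further gene above the panel level, named after its value was seen, was the matrix protease gene Mmp14 at 1.28. At the low end stood Wnt11, a Ret target of the kidney, with ratios of 0.204, 0.209, 0.205 and 0.206 (limma adjusted p = 5.93e-05), the MAP kinase phosphatase gene Dusp4 at -1.44 ± 0.05 (limma adjusted p = 0.000102) and the immediate early gene Fos at -0.94 ± 0.06 (limma adjusted p = 0.000246). The other Fos probe set did not pass.

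**Figure D4:**
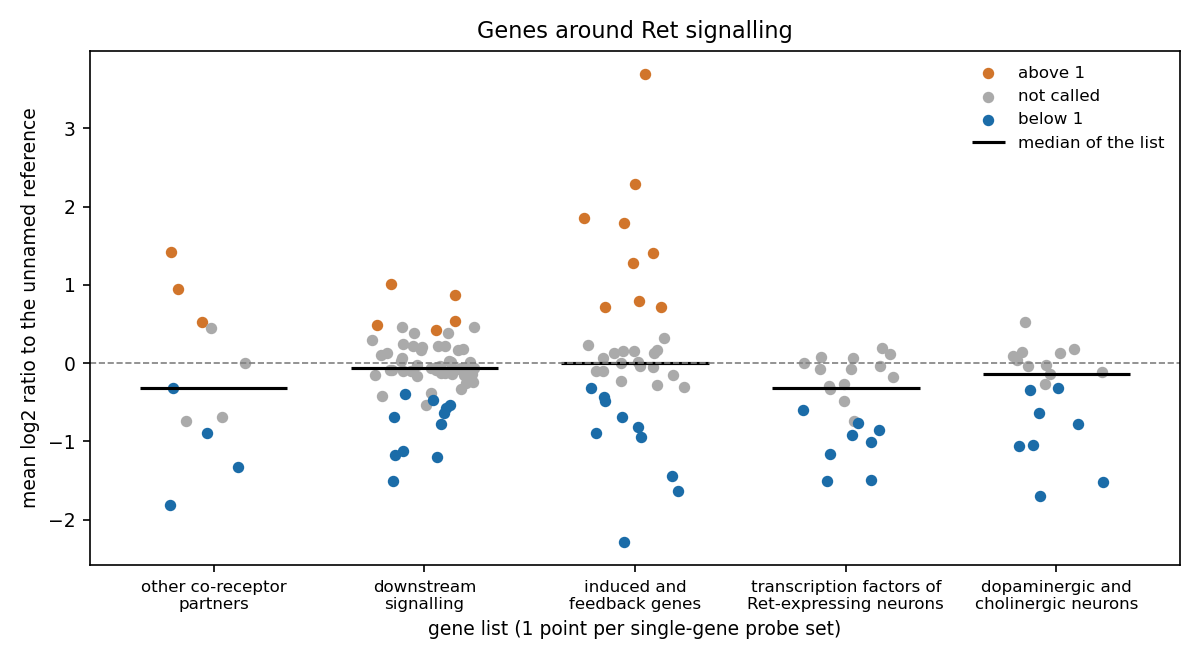
Mean log2 ratio to the unnamed reference (vertical axis) of each single-gene probe set in 5 gene lists (horizontal axis), coloured by limma's call against a ratio of 1, with a bar at the list median; points are spread sideways at random. The highest point is Etv4 at 3.69, and no probe set of the 2 lists for Ret-expressing neurons is above 1 by the test.

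Markers of the neurons that commonly use Ret had no probe set above 1 by limma, where 9.23% of all named genes had one. Of 14 measured transcription factor genes of such neurons, 0 were above 1 (0 at an unadjusted p under 0.05) and 7 had a probe set below, led by Phox2a, a factor of autonomic neurons, at -1.51 ± 0.07 (limma adjusted p = 0.000102), and the motor and sensory neuron factor gene Isl1 at -1.49 ± 0.04 (limma adjusted p = 6.14e-05). A second Isl1 probe set was not called, at 0.20 ± 0.45 (limma adjusted p = 0.432). Of 13 genes of dopaminergic and cholinergic neurons, 0 were above 1 (1 at an unadjusted p under 0.05) and 6 had a probe set below, among them the vesicular acetylcholine transporter gene Slc18a3 at -1.69 ± 0.09 (limma adjusted p = 9.92e-05) and the dopamine transporter gene Slc6a3 at -1.52 ± 0.06 (limma adjusted p = 0.000102), which had another probe set at 0.14. Th, which encodes the rate-limiting enzyme of dopamine synthesis, was level with the reference at 0.958, 0.991, 1.035 and 1.15, a mean log2 ratio of 0.04 ± 0.11 (limma adjusted p = 0.676). Of these lists 50% and 46.2% of genes had a probe set below 1, beside 37.7% of all named genes. Counted by probe set, 55.1% of the panel of genes from other organs was below 1 on chip A. Whether the low genes of these lists were detected cannot be read from ratios.

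The labelled cell type was set against its markers and those of other brain cells. Of all named genes, 9.23% had a probe set above 1 and 37.7% had one below. Of 15 oligodendrocyte lineage genes, only Pdgfra had a probe set above 1, and 4 had one below, with Aspa at -1.48 and 1 of the Cldn11 probe sets at -1.41 the lowest. The 3 Mbp probe sets were not called, at 0.08, -0.04 and -0.07, and 1 of the Olig2 probe sets was below 1 at -0.43. Astrocyte markers had 10 of 11 genes with a probe set above 1 and 2 with one below (Gja1 and Slc1a3, which had both), with a list median of 1.10. General neuron markers had 9 of 21 above and 3 below (Gad1 and Tubb3, which had both, and Syt1), with a list median of 0.35. The astrocyte filament gene Gfap stood at 1.41 and the higher probe set of the neuronal splicing factor gene Rbfox3 at 1.13. Microglia markers had 0 of 10 genes above 1 by limma and 4 below, or 1 below after centring, and those of peripheral Schwann and enteric glia had 0 of 8 above and 3 below, both lists with 0 above at an unadjusted p under 0.05. Their list medians were -0.53 and -0.12. Endothelial and mural markers had 1 of 11 above and 1 below. The part of any of these cells in the Ret ratio was not tested.

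Across all probe sets, the correlation of replicate pairs lay between 0.716 and 0.792 (chip A) and between 0.710 and 0.786 (chip B). Array medians lay between ratios of 0.888 and 0.967. On chip A 1462 probe sets were above and 4768 below a ratio of 1 (23.5% of calls above), or 1878 and 3689 (33.7%) once each array was centred on its median. After this centring the high Ret probe set stood at 2.81, the 3 low members stayed below, and 0 of the 7 other genes were above.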

How the data were processed

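Total RNA of 8 samples was biotin-labelled with Affymetrix's small-sample method, per the labels' protocols. The only tool in the submitters' processing notes is RMA, without a version. The authors deposited linear ratios, whose reference and any floor are not given in the sources. Gene names are those of GEO's platform annotation, in which 12783 chip A and 7564 chip B probe sets had 1 symbol, 312 and 100 several, 2771 and 7612 none. The gene IDs of 12748 and 7524 were in the RefSeq table for GRCr8, with 0 changed symbols.

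Ratios were put on the log2 scale without a pseudocount. The 57 control probe sets per array type were left out, leaving 15866 and 15276. limma 3.58.1 in R 4.3.3 (intercept, eBayes) tested each against a ratio of 1, two-sided, at a Benjamini-Hochberg adjusted p of 0.05 per array type. The one-sided test used each array's panel level. For chip B that level was taken from chip A, array by array, and shifted by the median difference of probe sets present on both. Control probe sets were not left out of this shift. With controls left out, deviations of same-numbered arrays over 100 shared probe sets correlated with r from 0.736 to 0.823. A test on simulated ratios recovered known changes, but all of these were log2 changes of 1 or more in size. It does not bear on smaller ones, such as those of Gfra1, Gdnf and Nrtn. Its noise was drawn independently for each replicate, so it cannot show the effect of an error common to all 4, such as one in the reference. Named genes were all members, the 5 nearest profiles, and up to 3 called genes at each end of a list, with 10 fixed names, of which 1 is not reported here. Members and lists were chosen with earlier results of these data known. Alternatives were other priors, centring, a pseudocount of 0.1, a filter at a mean ratio of 0.25, the panel maximum, median probe sets and leaving out each replicate. The number of arrays limits the precision.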

Additional observations from a re-analysis of the deposited data

Results flagged for a closer look

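Among 77 named probe sets, 2 had a replicate far from the other 3 relative to their range, a share that is below the roughly 1 in 20 that chance flags. Both belong to Olig2, an oligodendrocyte lineage transcription factor gene, and in both the replicate was number 1 on chip B. In 1 probe set its ratio was 0.656, beside 0.759 to 0.782 in the others, and in the other it was 0.947, beside 0.988 to 0.993. No probe set of Ret, a co-receptor or a ligand had such a replicate.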

How the results depend on the processing

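Of the 7 other genes, 0 were above a ratio of 1 and 3 were below with any replicate left out. These counts were the same with the trended, robust prior, the pseudocount, the filter (added for the members after the data were seen) or centring. They were also the same with median probe sets, but that setting read an even number of probe sets by the lower of the middle pair. For Gfra1 and Gfra2 this was the lower probe set, and each of the other genes had only 1. The median setting therefore could not change these counts. The high Ret probe set ran from 2.55 to 2.88 without 1 replicate, and the second ran from -0.03, without replicate 3, to 0.35. For the first Gfra1 probe set the limma adjusted p ran from 0.0757 to 0.54 over all alternatives, and for Gdnf from 0.00597 to 0.0325. Counts above the panel level, 342 on chip A and 459 on chip B, which also stand in place of 1462 and 776 above 1, were 137 and 51 with the trended, robust prior and 109 and 37 with the panel's maximum. With 1 replicate left out they ran from 220 (without replicate 1) to 385 on chip A, with 227 without replicate 4, and from 349 to 816 (without replicate 3) on chip B. Centring moved genes above 1 among downstream signalling genes to 7 (3 uncentred) and lineage genes to 3 (1), and genes below 1 among induced genes to 5 (9), microglia to 1 (4), astrocyte to 1 (2) and endothelial and mural genes to 0 (1). Under the same rule, which leans to the lower probe set, median probe sets left 1 co-receptor partner (3) and 0 endothelial and mural genes (1) above 1. They left 0 astrocyte genes (2) below. The cause was not tested. No paired analysis was possible because each test sets 1 group against a fixed ratio and no groups were compared. Ratios give no signal over background, so detection could not be judged.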

Other observations

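In the lists around Ret, 2 genes had probe sets called in both directions. Sdc3, the syndecan-3 gene, had a probe set with ratios of 1.762, 1.064, 1.336 and 1.721 (mean log2 ratio 0.53 ± 0.34, limma adjusted p = 0.035), another at -0.31 ± 0.07 (limma adjusted p = 0.015) and a low, even one with 0.391, 0.41, 0.407 and 0.383 (-1.33 ± 0.05, limma adjusted p = 0.000109). Src had 4 probe sets, of which the highest stood at 0.54 ± 0.17 and the lowest had ratios of 0.427, 0.448, 0.443 and 0.418 (-1.20 ± 0.05, limma adjusted p = 0.000131). In both genes the lowest probe set varied less between replicates than the highest.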
